A study of Mus musculus with 6 samples.

Results

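The 39 genes described here encode proteins that copy DNA: the licensing factors that mark origins, the helicase and polymerases of the replication fork, the enzymes that supply deoxynucleotides, and a few factors that pack or mark the new chromatin. They were chosen by symbol, and all 39 were found among the 28564 genes of the deposited count table. The table covers mouse small intestinal crypt epithelium, sorted as live single cells with EpCAM and CD44 on the surface and without CD31 or CD45. 3 samples came from wild-type (C57Bl/6) mice and 3 from Apln-/- mice, all male and aged 13 weeks. Apln encodes apelin, a secreted peptide, and the comparison asks how crypt epithelium differs without it. The labels give the knockout as Apln-/- and name no Cre or tissue-specific driver. They call the samples biological replicates and do not say whether animals were pooled. P-values weigh the difference between the genotypes against the spread between these samples.

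A cell licenses its origins in G1, when the origin recognition complex, Cdc6 and Cdt1 load a ring of Mcm2 to Mcm7 onto DNA. In S phase Cdc45 and the GINS complex turn that ring into an active helicase, and polymerases follow with the sliding clamp PCNA. Many of these genes are transcribed by E2F factors as cells pass from G1 into S. In the intestine they are best known from the dividing stem and progenitor cells of the crypt.

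Promoter sequences of 34 of the 39 genes were found in the RefSeq table of the mouse build GRCm38.p6, each with 250 bases before and 50 bases after a transcription start. The first listed start of each gene was used. Entries for Gmnn, Mcm4, Gins1, Gins2 and Pole were not found. The letters TTTCCCGC, TTTGGCGC, TTTCGCGC or TTTGCCGC, forms of the E2F binding motif, were searched on both strands. They were present in 13 of the 34 promoters (38.2%), against 2.32% of 27025 genes with a promoter entry and 4.17% of the 10116 such genes that were expressed highly enough to be tested here. Matches could overlap one another, as they did in Mcm5 and Mcm6. The letters CCAAT, on either strand, were in 67.6% of the replication promoters and 37.9% of all. These promoters were also richer in CpG, with a median of 23 per 300 bases against 7 over all genes and 20 over the tested genes. A match is a description of letters, not a measured binding site. Some of the stretches searched lie within annotated exons of the same gene. Of the 160 bases before the start, an exon covered 160 in E2f1 and Mcm7, 134 in Pcna and 106 in Gins3. The 160 bases before the start of 4 genes are printed because they show these letters in the licensing factor, 2 helicase subunits and the priming polymerase. Capitals mark the E2F-type letters, and each sequence reads 5′ to 3′ on the strand of the gene.
Cdc6, chr11:98907991-98908150, plus strand: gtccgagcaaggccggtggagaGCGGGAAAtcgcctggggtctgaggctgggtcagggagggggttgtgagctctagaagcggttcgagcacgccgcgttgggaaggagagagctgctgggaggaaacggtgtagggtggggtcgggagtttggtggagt
Mcm5, chr8:75109349-75109508, plus strand: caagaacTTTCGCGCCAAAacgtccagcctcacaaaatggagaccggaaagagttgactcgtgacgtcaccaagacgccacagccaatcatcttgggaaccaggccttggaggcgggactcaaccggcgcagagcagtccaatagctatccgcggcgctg
Mcm6, chr1:128359706-128359865, minus strand: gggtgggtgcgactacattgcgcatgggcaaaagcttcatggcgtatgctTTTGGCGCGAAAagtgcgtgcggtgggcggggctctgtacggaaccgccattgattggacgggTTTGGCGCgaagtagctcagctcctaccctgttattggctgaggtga
Pola1, chrX:93632156-93632315, minus strand: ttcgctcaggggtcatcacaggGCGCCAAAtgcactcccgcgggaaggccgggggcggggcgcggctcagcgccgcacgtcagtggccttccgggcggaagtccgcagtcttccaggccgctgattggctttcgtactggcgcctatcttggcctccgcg

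In Cdc6 and Pola1 a single match began 138 bases before the start. The window of Cdc6 holds no annotated exon but lies inside the gene, which has an earlier annotated start. In Mcm6 there were 3 matches, beginning 110, 106 and 47 bases before it. The genes with such letters and those without had similar fold changes between the genotypes. The median log2 fold change, knockout over wild type, was 0.05 in the 13 with a match and 0.08 in the 21 without. No member of either set passed the test described further on.

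The 6 libraries held 23046880 to 26513481 counts. The 5 most abundant entries took 70.7% to 75.3% of the counts in wild type and 77.3% to 78.9% in knockout, which left 5144725 to 7616648 counts per library for all other genes. In wild-type libraries 1, 2 and 3 the deleted gene Apln was counted 29, 7 and 5 times, and each knockout library had 0 counts of it, too few for the test. All 12 marker genes of crypt epithelium were measured, with a summed level of 1570 to 1840 CPM in wild type and 1780 to 2060 CPM in knockout. CPM, counts scaled to a common library size by the TMM method, is the unit of level throughout. Endothelial markers summed to 0.284 to 1.47 CPM in wild type and 0.138 to 1.13 CPM in knockout, with 0 of 7 above the count filter. Immune markers summed to 14.7 to 24.6 and 11.6 to 19.7 CPM, and no endothelial or immune marker in the table was at 0 counts in every library. Stromal markers, 9 of 10 above the count filter, were uneven between libraries. They summed to 42.7, 35.1 and 5.61 CPM in wild-type libraries 1, 2 and 3 and 17, 36.3 and 18.7 CPM in knockout libraries 1, 2 and 3.

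The replication genes had nearly the same summed level in both genotypes. Together they took 588, 548 and 652 CPM in wild-type libraries 1, 2 and 3 and 666, 570 and 550 CPM in knockout libraries 1, 2 and 3, or 596 ± 52.6 and 595 ± 61.9 CPM (SD, n = 3 each). The groups overlapped, and the difference between the means was smaller than either SD. Counts behind these levels ran from 21 for Gins3 in a knockout library to 1414 for Pcna in a wild-type library. In sorted bulk samples, a change in the share of dividing cells cannot be told apart from a change in RNA per dividing cell.

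Of the 39 genes, 0 passed edgeR's quasi-likelihood test at a Benjamini-Hochberg adjusted p under 0.05, where 0.172% of the 15122 genes tested did (0.112% higher in knockout, 0.0595% lower). Limma-voom also called 0 of the 39. DESeq2's Wald test called 0 of those to which it gave an adjusted p, where it called 2.96% of 10137 genes higher and 2.77% lower. At an unadjusted p under 0.05 the edgeR test had 1 member higher in knockout, Prim1, against 7.53% of all genes, and 1 lower, Uhrf1, against 7.66% of all genes. The median log2 fold change of the members was 0.06 (quartiles -0.15 and 0.17), and that of all genes tested was -0.01 (quartiles -0.31 and 0.31). A log2 fold change below 0 was seen for 16 members and above or at 0 for 23; over all genes 50.5% were below 0. All 39 members passed the filter on low counts.

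The design put bounds on most of these differences. The 95% interval of the fold change lay within 2-fold in either direction for 34 of the 39 genes, and within 1.5-fold for 17. The 5 genes whose interval reached past 2-fold were Gmnn, Gins1, Gins3, Uhrf1 and E2f1. The estimate itself was within 0.3 log2 units of 0 for 32 genes. The exceptions were these same 5 genes together with Prim1 and Rfc3.

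**Figure D1:**
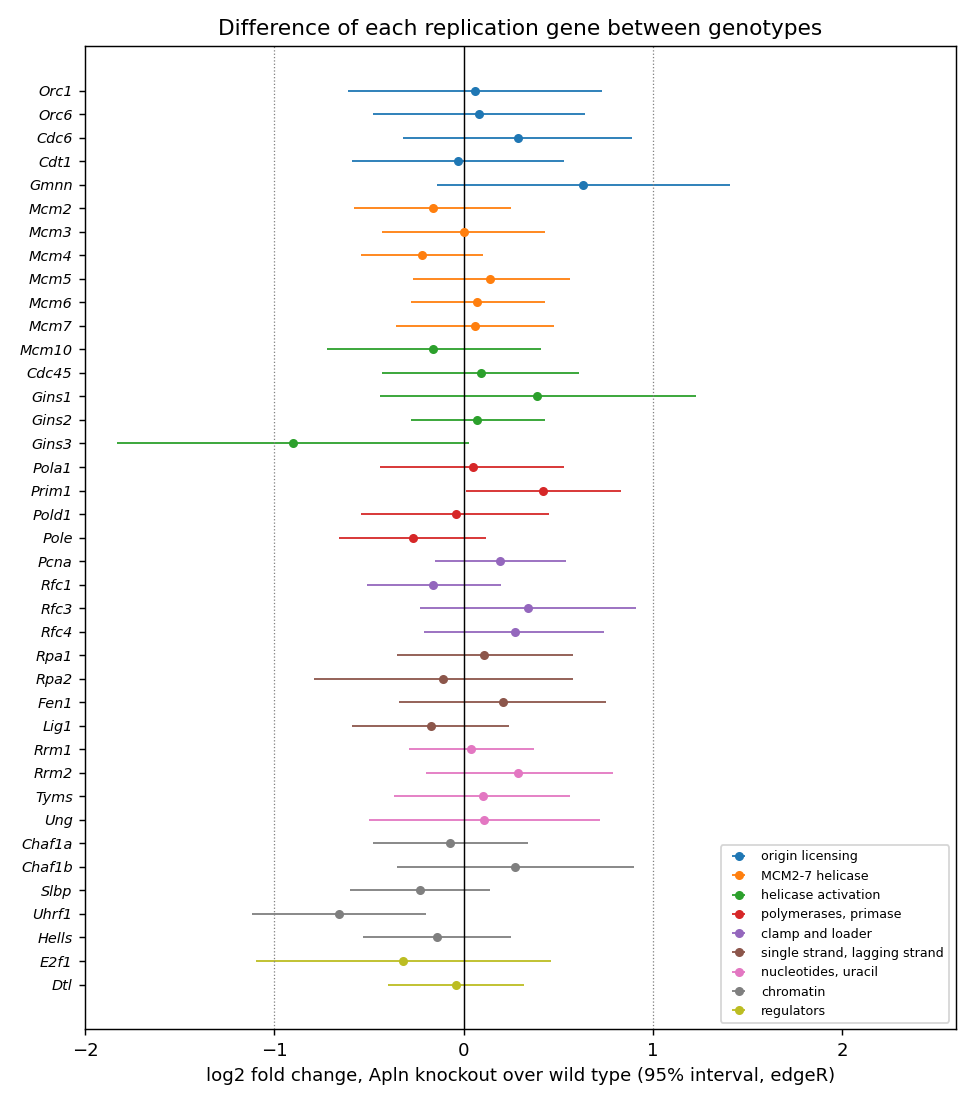
Log2 fold change of each of the 39 genes (horizontal axis, Apln knockout over wild type, 3 libraries each), with 95% intervals from edgeR and colours for the role of the gene; dotted lines mark a 2-fold difference. Intervals of 37 genes include 0, and those of Uhrf1 (-1.12 to -0.20) and Prim1 (0.01 to 0.83) do not.

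Among the licensing genes, none differed beyond the spread between replicates by the edgeR test. Gmnn encodes geminin, the inhibitor that holds Cdt1 in check after origins have fired. Gmnn (chromosome 13, 24751845 to 24761923, minus strand) was at 2.50, 2.48 and 6.12 CPM in wild-type libraries 1, 2 and 3 and at 6.42, 6.04 and 4.82 CPM in knockout libraries 1, 2 and 3. Wild-type libraries 1 and 2 were low, and wild-type library 3 lay among the knockout libraries, so the groups overlapped. The log2 fold change was 0.63 ± 0.36 (SE; edgeR unadjusted p = 0.101, adjusted p = 0.435). Without wild-type library 3 it was 1.21, with an edgeR adjusted p of 0.0542, and without wild-type library 1 or 2 it was 0.40, with adjusted p of 0.654 and 0.671. Cdt1, which brings the helicase ring to the origin, was at 6.07, 12.3 and 8.58 CPM in wild type and 9.80, 7.80 and 8.84 CPM in knockout. Here wild type held both the lowest and the highest library. The ratio of Gmnn to Cdt1 per kilobase was 0.985, 0.484 and 1.71 in the wild-type libraries and 1.57, 1.85 and 1.30 in the knockout libraries. Those of the knockout varied less, and wild-type library 3 fell within their range.

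Orc6, a subunit of the origin recognition complex, was at 6.94, 4.99 and 9.11 CPM in wild type and 6.24, 8.03 and 8.03 CPM in knockout. The groups overlapped, with a log2 fold change of 0.08 ± 0.26 (edgeR adjusted p = 0.921). Orc1, the subunit that helps bring the complex to chromatin in each cycle, averaged 4.01 ± 1.37 and 4.21 ± 0.214 CPM in wild type and knockout. Cdc6, the ATPase that works with the complex in loading the ring, averaged 4.34 ± 0.750 and 5.30 ± 1.38 CPM. As a group the 5 licensing genes summed to 28.0 ± 6.26 CPM in wild type against 31.5 ± 1.89 CPM in knockout (SD, n = 3 each).

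The 6 subunits of the MCM2-7 ring had similar levels in both genotypes. They summed to 133 ± 11.4 CPM in wild type against 131 ± 19.2 CPM in knockout (SD, n = 3 each), and their log2 fold changes ran from -0.22 for Mcm4 to 0.14 for Mcm5. Mcm4 was at 25.2, 24.4 and 23.8 CPM in wild type and 20.6, 22.1 and 20.3 CPM in knockout. Every knockout library lay below every wild-type library, a separation in this direction found for 3 of the 39 members (Mcm4, Gins3 and Slbp) and for 9.56% of all genes tested. The log2 fold change was small, -0.22 ± 0.15 (95% interval -0.54 to 0.10), and did not pass edgeR's test (unadjusted p = 0.164, adjusted p = 0.530). Mcm6 was at 31.9, 27.8 and 36.8 CPM in wild type and 38.8, 32.5 and 30.2 CPM in knockout. Its groups overlapped, with a log2 fold change of 0.07 ± 0.16 (edgeR adjusted p = 0.882). Mcm2, Mcm3, Mcm5 and Mcm7 had log2 fold changes of -0.16, 0.00, 0.14 and 0.06.

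The ring holds each subunit in equal number, and the messages were compared per kilobase. With the longest transcript as length, in the 6 libraries the subunit with most CPM per kilobase exceeded that with least by 1.60-fold to 1.79-fold. Mcm5 was the lowest subunit in 5 libraries, and Mcm2 in knockout library 2. The highest was Mcm6 in 3 libraries, Mcm7 in 2 and Mcm4 in 1. With the APPRIS principal transcript as length the range was 2.32-fold to 2.55-fold, and Mcm6 was the highest in all 6, so the spread between subunits depends on the length used. Counts of Mcm7 are uncertain because its exons overlap those of Ap4m1 and Cops6 on the other strand and hold the microRNA genes Mir25 and Mir93.

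Genes that turn the loaded ring into a running helicase summed to 50.7 ± 6.29 CPM in wild type against 50.6 ± 7.70 CPM in knockout (SD, n = 3 each). Gins3 (chromosome 8, 95633453 to 95645060, plus strand), a subunit of the GINS complex, was at 3.02, 2.31 and 1.70 CPM in wild type and 1.64, 0.969 and 1.13 CPM in knockout. All knockout libraries lay below the wild-type ones, although wild-type library 3 and knockout library 1 were close. It had the lowest level of all 39 genes, with 54 to 76 counts in wild type and 21 to 35 in knockout. The log2 fold change was -0.90 ± 0.43 (edgeR unadjusted p = 0.0564, adjusted p = 0.348), the largest of the 39 in size, with a 95% interval of -1.83 to 0.03. Gins2, another subunit, was at 23.4, 22.3 and 21.4 CPM in wild type and 26.5, 19.7 and 24.5 CPM in knockout. That is a log2 fold change of 0.07 ± 0.16 (edgeR adjusted p = 0.879), with knockout libraries both above and below all the wild-type ones. Gins1 was at 3.97, 3.31 and 2.08 CPM in wild type and 6.42, 2.77 and 3.07 CPM in knockout, with knockout library 1 alone above the rest. The difference of the fold changes between these subunits was not tested. Mcm10, a factor needed for helicase activation, averaged 15.9 ± 6.58 and 14.3 ± 2.25 CPM, and Cdc45, a part of the active helicase, 6.95 ± 1.51 and 7.40 ± 1.06 CPM.

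Of the polymerase genes, Prim1 was the one member higher in knockout at an unadjusted p under 0.05. Prim1 (chromosome 10, 128015168 to 128030037, plus strand) encodes the catalytic subunit of primase, which lays down the RNA primer. It was at 18.4, 11.5 and 14.8 CPM in wild type and 19.8, 20.2 and 19.7 CPM in knockout. All 3 knockout libraries were above all 3 wild-type libraries, a separation in this direction seen in 11.3% of all genes and in 1 of the 39 members. The knockout libraries hardly differed among themselves, and wild-type library 1 was close to them. The log2 fold change was 0.42 ± 0.19 (1.34-fold; edgeR unadjusted p = 0.0474, adjusted p = 0.323), and 0.26 without wild-type library 2. Pola1, the catalytic subunit of polymerase alpha that works with primase, was at 23, 14.3 and 25.8 CPM in wild type and 26.5, 19.7 and 18.9 CPM in knockout, without a separation. Pold1 and Pole, the catalytic subunits of the lagging-strand and leading-strand polymerases, had log2 fold changes of -0.04 ± 0.23 and -0.27 ± 0.18.

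Pcna (chromosome 2, 132249162 to 132253314, minus strand), the ring-shaped clamp that tethers polymerases to DNA, was the most abundant of these messages per length. It was at 40.2, 37.3 and 44.6 CPM in wild type and 54.9, 42.0 and 42.7 CPM in knockout. Knockout library 1 stood above the others, and the remaining libraries overlapped. Its log2 fold change was 0.19 ± 0.16 (edgeR adjusted p = 0.612), and -0.05 once trends with transcript length and GC content had been removed. Leaving out knockout library 1 gave 0.06, and leaving out wild-type library 2 gave 0.12. The copy Pcna-ps2 held 1132 counts over the 6 libraries, so reads of Pcna may be split between them. Rfc3, a subunit of the clamp loader, was at 5.52, 3.41 and 5.17 CPM in wild type and 6.28, 6.14 and 5.43 CPM in knockout. Its groups overlapped by the margin of wild-type library 1 over knockout library 3, with a log2 fold change of 0.34 ± 0.26 (edgeR adjusted p = 0.585), and 0.15 without wild-type library 2. The loader genes Rfc4 and Rfc1 had log2 fold changes of 0.27 ± 0.22 and -0.16 ± 0.16.

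Single-strand binding and lagging-strand genes summed to 53.2 ± 11.1 CPM in wild type against 50.8 ± 5.23 CPM in knockout (SD, n = 3 each). Lig1, the ligase that joins Okazaki fragments, was at 33.3, 24.2 and 37.3 CPM in wild type and 31.7, 22.9 and 29.4 CPM in knockout, and the groups overlapped. Its log2 fold change was -0.17 ± 0.19 (edgeR adjusted p = 0.723). Leaving out 1 library moved it from -0.34 (without wild-type library 2) to -0.03 (without wild-type library 3), with -0.27 without knockout library 1 and -0.04 without knockout library 2. Fen1, the nuclease that trims the flap before ligation, had a log2 fold change of 0.21 ± 0.25. Rpa1 and Rpa2, the larger subunits of the single-strand binding protein RPA, had 0.11 ± 0.21 and -0.11 ± 0.32. Rpa2 was at 10.9 CPM in wild-type library 3 and between 4.68 and 7.08 CPM in the other libraries.

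No gene of deoxynucleotide supply passed the test. Rrm1 and Rrm2 encode the large and the small subunit of ribonucleotide reductase, which makes deoxynucleotides. Rrm2, the subunit that is restricted to S phase, was at 7.34, 8.09 and 11.9 CPM in wild type and 10, 12.8 and 10.7 CPM in knockout. Wild-type libraries 1 and 2 were the lowest, wild-type library 3 lay within the knockout range, and the log2 fold change was 0.29 ± 0.23 (edgeR adjusted p = 0.589). It was 0.54 without wild-type library 3 (edgeR adjusted p = 0.192), 0.15 without wild-type library 1 and 0.19 without knockout library 2. Rrm1 had a log2 fold change of 0.04 ± 0.15, one of the tightest intervals of the set (-0.29 to 0.37). The ratio of Rrm2 to Rrm1 per kilobase was 0.577, 0.568 and 0.932 in wild type and 0.678, 0.891 and 0.916 in knockout, so wild-type library 3 was again higher than the other 2 of its group. Tyms, thymidylate synthase, was at 27.7, 40.5 and 23.6 CPM in wild type and 33.6, 38.8 and 25.8 CPM in knockout. Both groups spanned nearly the same range (log2 fold change 0.10 ± 0.21, edgeR adjusted p = 0.879). Ung, the glycosylase that takes uracil out of DNA, averaged 10.6 ± 4.36 and 11.5 ± 2.12 CPM.

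The chromatin genes held the member with the lowest p. Uhrf1 (chromosome 17, 56303321 to 56323486, plus strand) encodes the protein that reads hemimethylated DNA behind the fork and brings in the maintenance methyltransferase. It was at 24.8, 19.3 and 31.3 CPM in wild type and 19.7, 13.6 and 14.6 CPM in knockout. Knockout libraries 2 and 3 were below all wild-type libraries, while knockout library 1 was just above wild-type library 2, so the groups overlapped. The log2 fold change was -0.66 ± 0.21 (1.58-fold lower), which did not pass edgeR's test (unadjusted p = 0.0088, adjusted p = 0.175). Leaving out 1 library at a time gave log2 fold changes from -0.83 to -0.46 and edgeR adjusted p from 0.140 to 0.462. With no filter on low counts, the adjusted p of the edgeR test was 0.0386, and with DESeq2's Wald test it was 0.0555. Dnmt1, the methyltransferase that Uhrf1 recruits, was not in the replication set and is counted with the other chromatin genes further on.

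Slbp, which binds the stem-loop of histone messages, was at 14.6, 17.3 and 15.3 CPM in wild type and 13.5, 14.2 and 12.6 CPM in knockout. The groups did not overlap, but the difference was small (log2 fold change -0.23 ± 0.17, edgeR unadjusted p = 0.208, adjusted p = 0.577). Chaf1a and Chaf1b, subunits of the histone chaperone CAF-1, had log2 fold changes of -0.07 ± 0.19 and 0.27 ± 0.29, and Hells, a chromatin remodeller, -0.14 ± 0.18. The 5 chromatin genes summed to 81.9 ± 8.59 CPM in wild type against 69.4 ± 8.77 CPM in knockout (SD, n = 3 each).

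Neither regulator in the set passed the test. E2f1, a transcription factor that drives these genes at the start of S phase, was at 3.09, 2.58 and 5.71 CPM in wild type and 3.28, 2.35 and 3.5 CPM in knockout. Wild-type library 3 was the highest, and the other 5 libraries overlapped (log2 fold change -0.32 ± 0.36, edgeR adjusted p = 0.728). Without wild-type library 3 the log2 fold change was 0.11. Dtl, the ubiquitin ligase adaptor that removes Cdt1 at PCNA, was at 17.4, 22.3 and 21.4 CPM in wild type and 20.4, 18.3 and 20.6 CPM in knockout (log2 fold change -0.04 ± 0.17, edgeR adjusted p = 0.932).

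**Figure D2:**
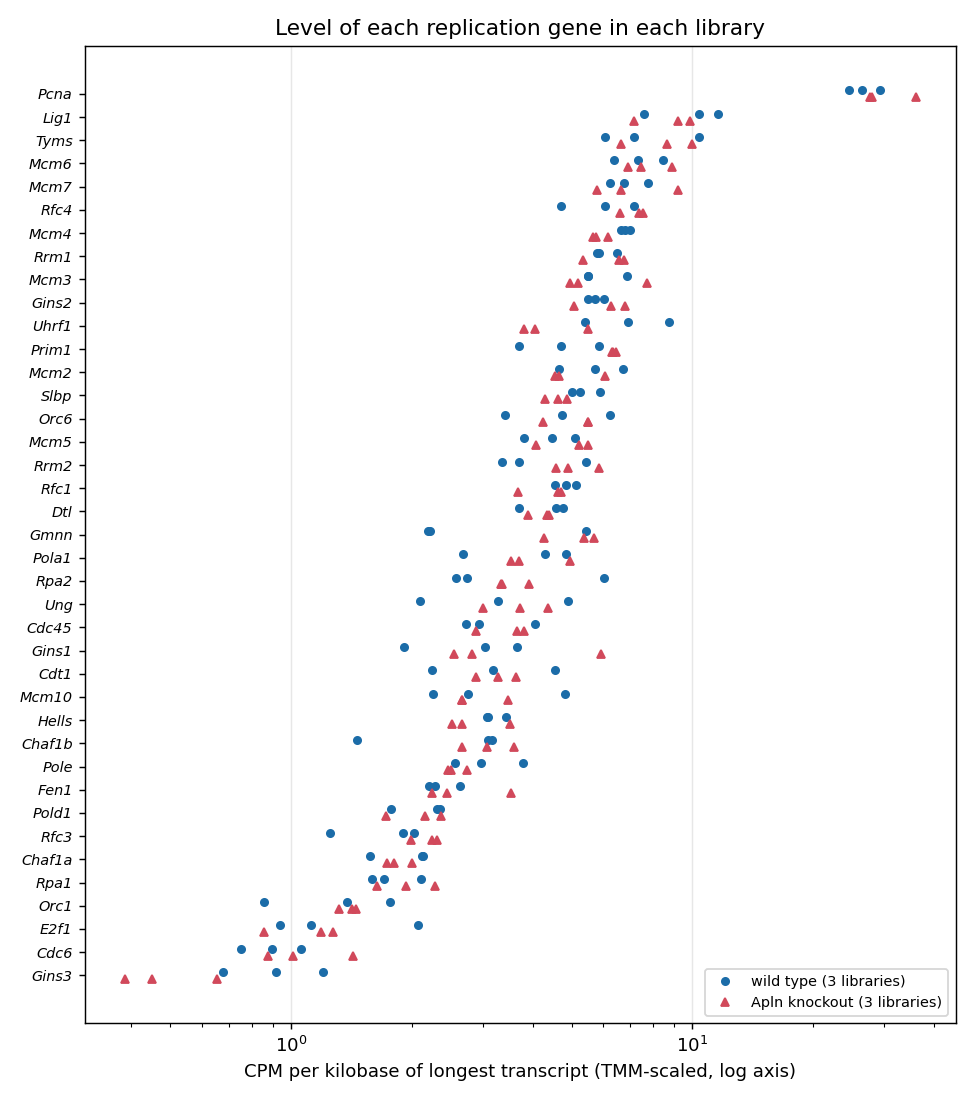
Level of each of the 39 genes in CPM per kilobase of its longest transcript (horizontal log axis); circles are the 3 wild-type and triangles the 3 Apln knockout libraries, and genes are ordered by their mean over all 6. Pcna (mean 28.7) stands above all others, and for 35 of the 39 genes the symbols of the genotypes overlap.

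Compared per kilobase, Pcna averaged 28.7 CPM over the 6 libraries (24.6 to 36.1), above Lig1 at 9.30 (7.16 to 11.6). It was the only gene whose libraries were all above those of the next in order. Every other gene overlapped the next one below it, from Lig1, Tyms (8.15), Mcm6 (7.58) and Mcm7 (7.07) down to Orc1 (1.36), E2f1 (1.24), Cdc6 (1.00) and Gins3 (0.713). With the principal transcript of the APPRIS annotation in place of the longest one, 8 of the top 10 stayed in the top 10. Prim1 then had 11 CPM per kilobase instead of 5.56, and 5 genes moved by more than 5 places.

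Between libraries of one genotype, the members tended to move together. Centred on the mean of all 6 libraries, the median log2 level of the 39 genes was 0.13 in wild-type library 3 and 0.16 in knockout library 1, and below 0 in the other 4. Knockout library 1 held the highest value for 16 members and wild-type library 3 for 11, where they held the highest for 15.6% and 16.9% of all genes tested. Wild-type libraries 1 and 2 and knockout library 2 held it for 4 members each (17.9%, 22.4% and 16.3% of all genes), and knockout library 3 for 0 (10.9%). Within the groups, the Pearson correlation of each member with the mean of the other members had a median of 0.61 over the 6 libraries, and 34 members were above 0. Mcm6 (0.99), Uhrf1 (0.97), Pcna (0.93) and Mcm10 (0.93) followed the shared movement most closely. Tyms (-0.49), Mcm4 (-0.37), Slbp (-0.30) and Cdt1 (-0.17) went against it. These correlations rest on 6 libraries with 2 group means removed and share library depth and scaling. They were not computed for all genes or for another gene set. Whether such values are particular to the replication genes was therefore not tested.

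Markers of mitosis had another order of libraries. For 28 genes of the G2 and M phases, the median deviation was -0.12 in wild-type library 3 and 0.03 in knockout library 1. Stem cell markers summed to 1150, 1150 and 755 CPM in wild-type libraries 1, 2 and 3. In knockout libraries 1, 2 and 3 they summed to 1580, 813 and 1270 CPM. Wild-type library 3 was the lowest in this sum and knockout library 1 the highest. Wild-type library 3 and knockout library 1 also differed in secretory markers. Goblet cell markers summed to 5080 CPM in wild-type library 3, against 1540 to 2530 CPM in the other 5. Paneth cell markers summed to 997, 647 and 988 CPM in wild-type libraries 1, 2 and 3 and to 2500, 1060 and 1610 CPM in knockout libraries 1, 2 and 3. Every knockout library was above every wild-type one in this sum, and knockout library 1 was the highest. Taken singly, 2 of the 8 Paneth markers separated in this direction, against 11.3% of all genes tested. Between genotypes, 6 of 8 Paneth markers had a log2 fold change above 0. All 10 enteroendocrine markers and 8 of 9 tested tuft markers had a log2 fold change below 0, where 50.5% of all genes did. In each of these lists 0 markers passed edgeR's test at an adjusted p under 0.05. The summed levels of enteroendocrine and tuft markers were 845 to 1120 against 504 to 681 CPM and 90.1 to 134 against 34.9 to 77.8 CPM, wild type first. Taken singly, 4 of 10 enteroendocrine and 5 of 9 tested tuft markers separated with knockout lower, against 9.56% of all genes tested. The part of these cells in the results for replication genes was not tested. The median spread between replicates (SD of log2 CPM) was 0.30 in wild type and 0.22 in knockout for the members, and 0.37 and 0.25 over all genes.

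**Figure D3:**
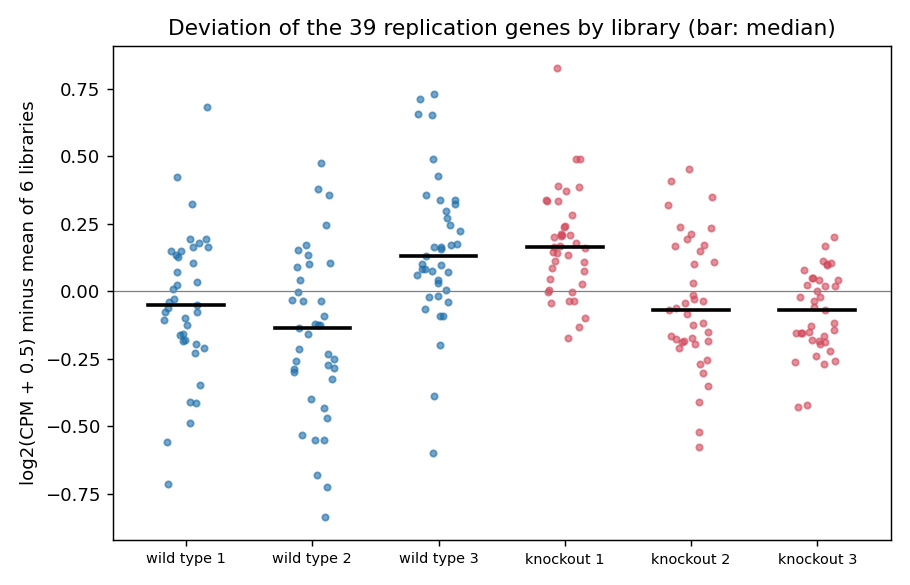
Deviation of each of the 39 genes in each library from its mean over the 6 libraries (vertical axis, log2(CPM + 0.5)); each point is a gene and the bar is the median of the 39. The medians are 0.13 in wild-type library 3 and 0.16 in knockout library 1 and below 0 in the other 4, so neither genotype is high as a whole.

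Transcript length moved with the fold changes. Short transcripts were higher in the knockout libraries over the whole table, with a median log2 fold change of 0.17 in the 5037 genes with the shortest transcripts, 0.00 in the middle 5037 and -0.13 in the 5037 longest. The replication genes followed the same order. In these length classes the medians were 0.23 for 8 members, 0.03 for 20 and -0.04 for 11. Across genes, as a description, the rank correlation (Spearman) of fold change with length was -0.40 over the 39 members and -0.26 over all genes. After per-library trends with length and GC content had been removed, the median of the members was 0.03, and 7 of them changed sign (Orc1, Orc6, Cdc45, Pold1, Pcna, Rfc4 and Chaf1a), to corrected values between -0.15 and 0.13. Uhrf1 kept a log2 fold change of -0.61 (edgeR adjusted p = 0.301), Prim1 0.34 (0.490), Gmnn 0.41 (0.672) and Gins3 -1.0 (0.388).

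**Figure D4:**
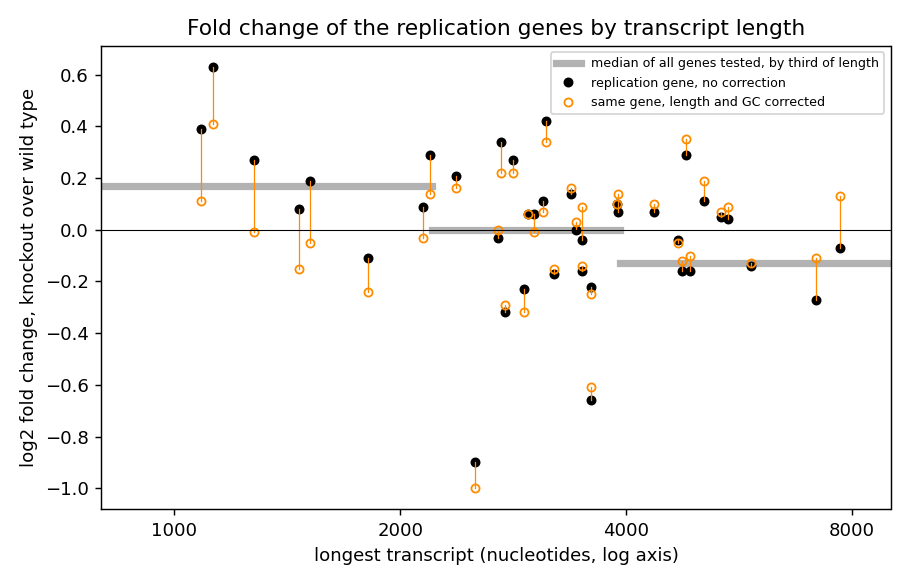
Log2 fold change of the 39 genes (vertical axis, knockout over wild type) against the length of the longest transcript (horizontal log axis, nucleotides), before (filled) and after (open) removal of length and GC trends; grey bars are medians of all genes tested in 3 equal length classes (0.17, 0.00 and -0.13). The short members at the left, such as Gmnn (0.63 before, 0.41 after), move down, and Gins3 and Uhrf1 stay lowest.

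Other genes of DNA replication outside the set showed the same absence of calls. Of 38 further licensing and fork genes, 0 passed edgeR's test at an adjusted p under 0.05, where 0.172% of all genes did. At an unadjusted p under 0.05, 4 were higher and 3 lower, against 7.53% and 7.66% of all genes, and the median log2 fold change was 0.09. Rpa3, the smallest subunit of RPA, was at 4.09, 3.00 and 6.62 CPM in wild type and 11.2, 15 and 8.46 CPM in knockout. All knockout libraries were above all wild-type libraries, unlike those of its partners Rpa1 and Rpa2; the difference between the subunits was not tested. Its log2 fold change was 1.33 ± 0.31 (edgeR unadjusted p = 0.000913, adjusted p = 0.0879), and 0.98 with the length and GC correction. Its transcript has 682 nucleotides. Rnaseh2c, a subunit of the nuclease that removes ribonucleotides from DNA, was at 9.88, 8.82 and 9.27 CPM in wild type and 15.6, 16.7 and 14.7 CPM in knockout. It also separated, with a log2 fold change of 0.75 (edgeR adjusted p = 0.0925), and 0.6 with the length and GC correction. The Rnaseh2c transcript has 1126 nucleotides. Pold3, an accessory subunit of polymerase delta, had -0.49 (edgeR adjusted p = 0.225), and -0.54 with that correction.

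Of 22 further nucleotide genes, 0 passed, with 6 higher (7.53% of all genes) and 3 lower (7.66% of all genes) at an unadjusted p under 0.05 and a median of 0.15. The nucleoside diphosphate kinase genes Nme2 (log2 fold change 1.29, edgeR adjusted p = 0.0989) and Nme1 (0.76, 0.163) and the UMP-CMP kinase gene Cmpk1 (0.65, 0.202) had the lowest p. Nme2 was at 2.98, 2.10 and 5.39 CPM in wild type and 8.63, 8.95 and 8.13 CPM in knockout, with no overlap. Its transcript is short (1012 nucleotides). With the length and GC correction Nme2, Nme1 and Cmpk1 had 1.14, 0.74 and 0.54. Of 12 further chromatin genes of replication, Dnmt1 among them, 0 passed and 0 had an unadjusted p under 0.05, with log2 fold changes from -0.20 to 0.23. The lowest p there belonged to the histone chaperone genes Rbbp7 (0.21, edgeR adjusted p = 0.598), Asf1a (0.23, 0.640) and Rbbp4 (0.18, 0.663).

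Of 29 regulators of the passage from G1 to S, 0 passed, and the median log2 fold change was -0.09. At an edgeR unadjusted p under 0.05, 3 were higher and 3 lower, against 7.53% and 7.66% of all genes. E2f4, a mainly repressive E2F factor, was at 21.6, 28.8 and 14.5 CPM in wild type and 9.47, 11.8 and 10.6 CPM in knockout. The groups did not overlap, and the log2 fold change was -1.03 ± 0.24 (edgeR unadjusted p = 0.000882, adjusted p = 0.0879). E2f6, another repressive factor, had -0.91 (edgeR adjusted p = 0.126), and Cdk2, the kinase that fires origins, -0.72 (0.142), both with all knockout libraries below wild type. A separation in this direction was found for 3 of the 29 regulators and for 9.56% of all genes tested. With the length and GC correction E2f4, E2f6 and Cdk2 had -1.10, -0.95 and -0.75. E2f1, described above, overlapped between the groups; the difference between these factors was not tested.

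Of 28 markers of the G2 and M phases, 0 passed, and the median log2 fold change was 0.02. At an edgeR unadjusted p under 0.05, 1 was higher and 3 were lower, against 7.53% and 7.66% of all genes. Mki67, the proliferation marker Ki-67, was at 312, 404 and 348 CPM in wild type and 168, 234 and 202 CPM in knockout. The knockout libraries were all lower, by a log2 fold change of -0.82 ± 0.17 (edgeR unadjusted p = 0.000385, adjusted p = 0.0628). Its transcript is long (10061 nucleotides), and the value was -0.63 with the length and GC correction. Aurka, a mitotic kinase, had 0.72 (edgeR adjusted p = 0.132) and Cenpf, a kinetochore protein with a transcript of 11130 nucleotides, -0.57 (0.175). With the length and GC correction Aurka and Cenpf had 0.59 and -0.39.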

How the data were processed

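RNA was measured in 3 wild-type and 3 Apln knockout samples. Per the labels' protocols, RNA from a micro-scale column kit (RNeasy Plus Micro) was amplified by Ovation Pico WTA and turned into libraries by Nextera DNA Flex. The submitters' processing notes name STAR 2.6.1, HTSeq and mm10. Annotation release and strand setting are not stated in any source used here, and reads of overlapping genes cannot be separated (exons of 12 members overlap another gene). The deposited table holds raw counts per gene, which the authors did not normalize, in 6 columns, 0 of them without a sample. Libraries are called by the replicate numbers of the titles: knockout libraries 1, 2 and 3 are the columns KO1, KO3 and KO4 of the deposited table, and the replicate block rests on the titles' numbers.

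GENCODE M21 gave symbols for 28551 of 28564 identifiers, coordinates and lengths. Counts were fitted in R 4.3.3 with edgeR 4.0.16: filterByExpr (count minimum 10, total minimum 15) kept 15122 genes, scaling was by TMM, and the quasi-likelihood test (glmQLFit, glmQLFTest) took genotype as the single term. P-values were adjusted by Benjamini-Hochberg over all genes tested, threshold 0.05. Intervals are 95% intervals of that fit. Alternatives were other scalings and filters, DESeq2 1.42.0, limma-voom (limma 3.58.1), a replicate block, a length and GC correction (mgcv) and leaving out each library. For single-member correlations 0.5 was added to CPM before log2.

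Per-library values are given for members at an unadjusted p under 0.05 and, in each role group, for the member of highest CPM per kilobase and that of lowest p; up to 3 genes of lowest p are named from each other list. Values in every library for Cdt1, Gins1, Pola1 and Slbp were added after they were seen. The members and lists were chosen with earlier results of these data known. The libraries differed beyond sampling noise within groups, with a chi-square per degree of freedom of 8.37 to 61.7. Without molecular identifiers, reads can be copies of one molecule.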

Additional observations from a re-analysis of the deposited data

How the results depend on the processing

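The count of replication genes called stayed at 0 under every alternative run except 1: with no filter on low counts it was 1 (Uhrf1, log2 fold change -0.66, edgeR adjusted p = 0.0386), in a fit that called 629 of all genes. Over all genes, the main edgeR fit called 26, DESeq2's Wald test 581, limma-voom 56 and the 1 CPM filter 117, and DESeq2 size factors, upper-quartile scaling, removal of the 5 most abundant entries and the length and GC correction 1 each. Leaving out 1 library gave 0 to 358 calls over all genes (358 without wild-type library 3) and 0 replication genes each time. At an unadjusted p under 0.05, the count of members higher in knockout was 1 in the main fit. It was 0 with DESeq2 size factors, without the 5 most abundant entries, in DESeq2's Wald test and with the length and GC correction (with or without the replicate block), and 2 with no filter. The count lower was 1, and 2 with the length and GC correction, again with or without the block. Leaving out 1 library gave 0 to 2 higher and 1 to 2 lower, and a median log2 fold change from -0.06 (without knockout library 1) to 0.17 (without wild-type library 3), -0.02 without wild-type library 2, against 0.06; the cause of these shifts was not tested. With the replicate number as a block 0 members and 173 of all genes were called, and the median stayed at 0.06. Whether the numbers pair the samples is not stated in the labels, and correlations over so few libraries cannot decide it. Deviations of same-numbered libraries correlated weakly, at 0.041, 0.057 and 0.011. Of the 6 libraries, 5, all but knockout library 3, correlated best with their own number. Of 240 values of 15 named members under 16 alternatives, 226 kept their direction and their side of the threshold, 1 passed it (Uhrf1) and 13 changed sign, in 7 genes with main values from -0.32 (E2f1) to 0.19 (Pcna). Leaving out 1 library gave Orc6 -0.12 to 0.32, Mcm6 -0.03 to 0.19, Gins2 -0.02 to 0.19, Tyms -0.06 to 0.34, E2f1 -0.55 to 0.11 and Dtl -0.16 to 0.01. The sign changes were, with the length and GC correction, Orc6 (-0.15, and -0.13 with the block) and Pcna (-0.05 in both). Without wild-type library 2 they were Orc6 (-0.12), Mcm6 (-0.03) and Dtl (0.01), and without wild-type library 3, Tyms (-0.06) and E2f1 (0.11). Without knockout library 1 they were Mcm6 (-0.03) and Gins2 (-0.02), and without knockout library 2, Tyms (-0.04) and Dtl (0.01). The number of promoters with E2F-type letters was 13, and 20 when GCGGGAA was added. The median level per kilobase was 4.20 CPM, and 4.59 with the principal transcript, an alternative chosen after seeing the data.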
